A study of Mus musculus with 2 samples.

Results

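The cells described here are macrophage-like cells that carry RNA of complement C1q, taken from immune cells sorted out of mouse melanomas. They were chosen by their counts of unique molecular identifiers (UMIs): a barcode had to hold at least 5 UMIs of C1qa, C1qb and C1qc together and 0 UMIs of Cd3e, Cd3d, Ncr1, Cd79a and Siglech, genes of T, NK, B and plasmacytoid dendritic cells. A barcode also had to hold at least 500 UMIs, of which at most 10% were mitochondrial. This rule took 153 of the 17334 barcodes that passed the UMI and mitochondrial limits. Of these, 75 were among 9872 barcodes of the control library and 78 among 7462 of the knockdown library. The levels of C1q and the absence of the 5 lymphoid genes are therefore how the cells were found, and are given as a description only.

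B16.SIY melanoma cells, a B16 line that carries the SIY model antigen, were grown under the skin of B6 mice, and live CD45+ cells were sorted from the tumours at day 14 for single-cell RNA sequencing. Before injection, the tumour cells of both groups had received an shRNA by lentivirus, a control shRNA in one group and an shRNA against Decr2 in the other, and had been selected in puromycin at 1.5 µg/mL for 3 days. The knockdown was thus made in the tumour cells, and the C1q macrophages came from the hosts. Each group had 1 library, from a number of mice that the sources used here do not give, and no difference between the groups has a replicate check. Values in brackets bound counting error only (exact, at 95%), and "higher" or "lower" compares these libraries, not the conditions.

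C1q is the recognition part of the first complement component, built from A, B and C chains that each come from their own gene. Unlike most complement proteins, which come from the liver, C1q is made largely by macrophages and some dendritic cells, and it binds immune complexes, dying cells and debris. In tumours, C1q is often used to mark macrophages that have matured from monocytes or that reside in the tissue, together with Ms4a7, a membrane protein of the MS4A family, Apoe, which carries lipid, and Lgmn, a lysosomal protease.

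The 3 C1q genes lie next to each other on the minus strand of chromosome 4 (GRCm38): C1qb from 136880129 to 136886187, C1qc from 136889804 to 136893065 and C1qa from 136895917 to 136898803. The promoter table from RefSeq (GRCm38.p6) matched 5 of the 6 markers, all but C1qa. RefSeq and GENCODE place the start of C1qc differently, and the 250-base RefSeq window of C1qc (chr4:136892915-136893164) runs into the first exon of the GENCODE gene, which is not shown. Printed are the 250 bases before the RefSeq start of C1qb (chr4:136886201-136886450, minus strand) and the 99 bases of the C1qc window outside the GENCODE gene (chr4:136893066-136893164, minus strand), because these chains were detected in most of the cells. Capitals mark GAGGAA, the core of sites bound by PU.1, a transcription factor of myeloid cells, and TGCTGA, part of the site bound by MAF factors, both searched on either strand, so that TTCCTC is GAGGAA on the other strand. The marked stretches do not overlap.
C1qb: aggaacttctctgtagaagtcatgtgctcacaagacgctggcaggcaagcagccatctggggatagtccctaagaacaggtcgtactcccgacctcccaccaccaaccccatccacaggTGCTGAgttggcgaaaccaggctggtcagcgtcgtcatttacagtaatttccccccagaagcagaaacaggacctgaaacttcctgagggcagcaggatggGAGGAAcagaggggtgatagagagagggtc
C1qc: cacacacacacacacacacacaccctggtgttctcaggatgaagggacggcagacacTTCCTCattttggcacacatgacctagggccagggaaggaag
The C1qb window held 1 GAGGAA and 1 TGCTGA, and the whole C1qc window 1 GAGGAA, the one shown. Of 32851 windows of the same length in the table, 23.3% held GAGGAA, 16.1% held TGCTGA and 3.68% held both, so a match by itself is common. No match was found in the windows of Ms4a7 or Lgmn, and GAGGAA was found in 2 of the 3 windows of Apoe.

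C1q RNA was spread unevenly over the cells. The cells of the control library held a median of 10 C1q UMIs, from 5 to 203, and those of the knockdown library a median of 13, from 5 to 79. All 3 chains were detected in 46 of 75 control cells and 51 of 78 knockdown cells, and only 1 chain in 4 and 6 cells. C1qb was the chain seen most often, in 75 of 75 and 77 of 78 cells, against 67 and 65 cells for C1qc and 50 and 59 cells for C1qa. A few cells held much of the total: 6 control cells with more than 50 C1q UMIs carried 47.1% of all C1q UMIs of the control cells, and 2 such knockdown cells carried 11.3%.

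**Figure D1:**
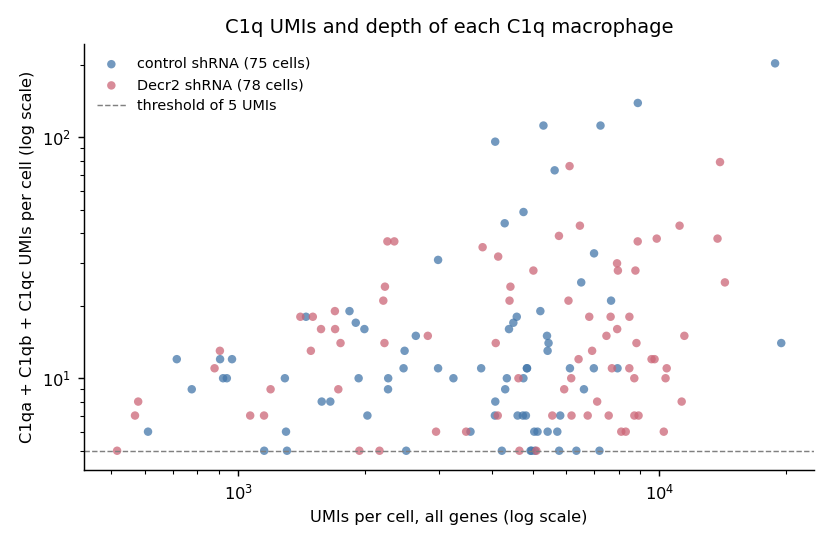
Each point is 1 C1q macrophage, with its total UMIs on the x axis and its C1qa, C1qb and C1qc UMIs on the y axis, both on log scales, coloured by library. The dashed line is the threshold of 5 UMIs; 6 control cells and 2 knockdown cells lie above 50, and the highest control cell reached 203.

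The threshold cut through a continuous range of counts. Just inside it, 10 control and 5 knockdown cells held exactly 5 C1q UMIs, with median depths of 4958.5 and 2166 UMIs. Just outside, 12 cells of each library held 4, with median depths of 3886 and 7735 UMIs. Most barcodes rich in C1q were turned away by the lymphoid genes: 185 control and 173 knockdown barcodes held 5 or more C1q UMIs, and 88 and 83 of these also held Cd3e or Cd3d, 26 and 18 Ncr1, 3 and 4 Cd79a, and 3 and 2 Siglech. At least 1 C1q UMI was seen in 9.39% of control and 12.1% of knockdown T cells (Cd3e and Cd3d at least 2, median depths of 4300 and 7130.5 UMIs), and in 2.21% and 3.31% of B cells (Cd79a at least 2, no Cd3e or Cd3d, median depths of 1643 and 2603 UMIs). C1q UMIs were thus also found in barcodes with T cell genes, and how much of this was free RNA or doublets was not tested.

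Members of the group were deeper than the average barcode, and the knockdown members deeper than the control members. The median C1q macrophage held 4395 UMIs in control and 6013.5 in knockdown tumours, with 1588 and 1930 genes detected, against 3002 and 4573.5 UMIs for all barcodes that passed the limits. Summed over the members, the levels below rest on 329959 control and 447739 knockdown UMIs, and are given in CPM, UMI counts scaled to the same total in every gate and library. The libraries shared 34 barcodes, 0 of them among the C1q macrophages. A doublet caller marked 2 of the 75 control and 3 of the 78 knockdown cells, which were kept. These are 2.67% and 3.85% of the members, against 9.27% and 7.54% of all barcodes that passed the limits. The caller's doublet rate was a setting, 0.8% per 1000 barcodes, and the rule had already turned away barcodes with lymphoid genes. The low counts therefore cannot show that few members were doublets. Decr2, the targeted gene, had 3 UMIs in control and 2 in knockdown C1q macrophages, which were not the cells that carried the shRNA. In the melanoma cells left in the sort (at least 10 UMIs of Pmel, Mlana, Dct and Tyrp1, 92 and 79 barcodes), Decr2 was at 6.48 (4.01 to 9.90) CPM in the control and 3.76 (1.80 to 6.92) CPM in the knockdown library, where median depths were 36511.5 and 4647 UMIs and the intervals overlapped.

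Ms4a7 and Lgmn, which the rule did not use, set these cells apart from other myeloid cells, and Apoe did so less. They were compared with 3 groups gated on the same limits and with fewer than 5 C1q UMIs: monocytes (596 control and 417 knockdown cells, at least 5 UMIs of Ly6c2, Ccr2 and Plac8, 5 of Lyz2 and fewer than 5 of Inhba, Thbs1 and Ptgs2), Inhba macrophages (209 and 175 cells, at least 5 UMIs of Inhba, Thbs1 and Ptgs2 and 5 of Lyz2) and Cd209a dendritic cells (77 and 58 cells, at least 3 UMIs of Cd209a and outside both other gates). These are gates on a few genes, not cell types called from all genes. Ms4a7 was at 115 CPM in control C1q macrophages against 6.21 CPM in control monocytes, 18.5-fold (10.3 to 34.5), and at 127 against 9.20 CPM in the knockdown library, 13.8-fold (8.61 to 22.7). Against Inhba macrophages it was 7.09-fold (3.95 to 13.2) and 13.7-fold (7.27 to 28.1) higher, and Cd209a dendritic cells held 0 UMIs of it in both libraries, so that C1q macrophages were at least 16.2-fold and 21.2-fold higher against a floor of 3 UMIs over the dendritic cells. Even so, a UMI of Ms4a7 was seen in 17 of 75 control and 22 of 78 knockdown C1q macrophages only.

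Lgmn was detected in 52 and 55 cells. Its level of 685 CPM in the control and 609.7 CPM in the knockdown library was 5.08-fold (4.29 to 6.0) and 5.50-fold (4.67 to 6.48) that of monocytes, and 1.89-fold (1.60 to 2.23) and 2.18-fold (1.86 to 2.56) that of Inhba macrophages. Apoe was at 900.1 and 797 CPM, with UMIs in 36 and 41 cells. It exceeded monocytes 3.19-fold (2.79 to 3.65) in the control library but 1.31-fold (1.17 to 1.47) in the knockdown library, where monocytes themselves held 607 CPM against 282 CPM in the control. Apoe was also at 392 and 532 CPM in B cells and at 1229 and 1559 CPM in melanoma cells, so it marked the C1q macrophages poorly, and the part of free RNA in its level was not tested.

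**Figure D2:**
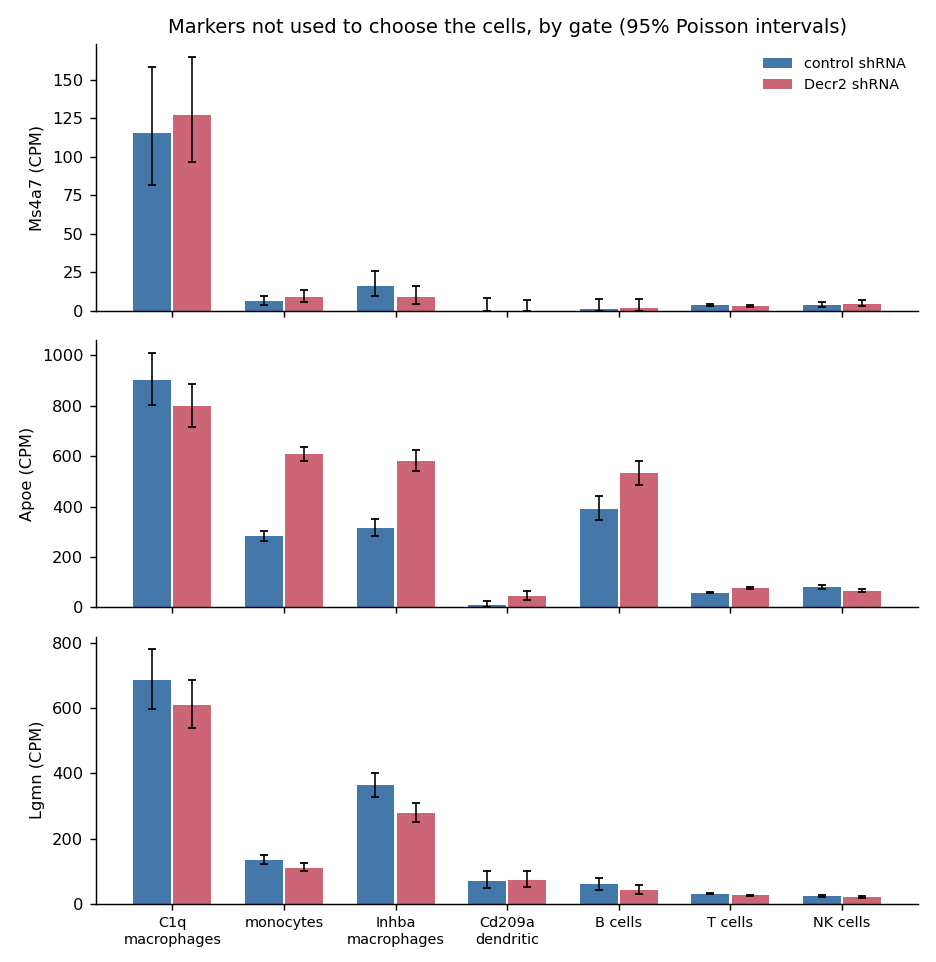
Bars give the level in CPM of Ms4a7, Apoe and Lgmn, 1 panel each, in C1q macrophages and 6 other gates of the control and knockdown libraries, with exact 95% Poisson intervals. Ms4a7 and Lgmn are highest in C1q macrophages in both libraries, while Apoe is also at 392 and 532 CPM in B cells.

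As a check of the label, general macrophage genes were present, and so were genes of monocytes and of lymphoid cells. Cd68, a lysosomal membrane protein, was detected in 63 of 75 and 63 of 78 cells, Fcgr1, the high-affinity IgG receptor, in 51 and 56, and Csf1r, the receptor for macrophage colony-stimulating factor, in 30 and 38. Genes used for long-resident tissue macrophages were mixed. Cd163, Lyve1, Timd4 and Vsig4 had 0 UMIs in both libraries, and Folr2 had 15 UMIs in 4 control cells and 0 in the knockdown cells. Mrc1, the mannose receptor, was detected in 12 and 18 cells, Pf4, a platelet-type chemokine, in 12 and 7, and Selenop, a selenium carrier, in 23 and 21. Plac8 and Ly6c2, which fade as monocytes mature, were still at 2385 and 591 CPM in the control and 2131 and 913 CPM in the knockdown C1q macrophages. A UMI of Cd3g, Trac, Trbc2, Nkg7, Gzma or Gzmb was seen in 35 of 75 control and 61 of 78 knockdown cells. The cells thus hold macrophage, monocyte and lymphoid RNA side by side. The name follows the C1q rule that chose the cells, so C1q is no check of it. Of the markers outside the rule, Ms4a7 was seen in 17 of 75 and 22 of 78 cells. Lgmn was 1.89-fold and 2.18-fold the level of Inhba macrophages in the control and knockdown libraries.

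Within the group, the amount of C1q went with other genes. The members of each library were put in 3 equal bins by the C1q share of their UMIs, which ran in control cells from 6.94 to 20.9, 21.0 to 48.3 and 50.7 to 236 per 10000 UMIs, and in knockdown cells from 5.86 to 17.3, 17.5 to 55.8 and 56.7 to 164. The median depth differed between the bins, at 5065, 4395 and 1932 UMIs from the lowest to the highest in control cells and 8219.5, 6869.5 and 1698 in knockdown cells, and its part in what follows was not tested. Ms4a7 was at 34.4, 70.4 and 306 CPM from the lowest to the highest bin of control cells and 29.5, 126 and 417 CPM in knockdown cells. Lgmn was at 405, 664 and 1189 and 442, 681 and 921 CPM, and Ctsb, a lysosomal cysteine protease, at 1319, 1921 and 3555 and 1679.8, 2061 and 2748 CPM. Cells with a larger C1q share thus held more of these macrophage and lysosome genes in both libraries.

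Of the monocyte genes, Plac8 and Ccr2 ran the other way. Plac8 was at 3834, 1820.2 and 565 CPM from the lowest to the highest bin in control cells and 3320.3, 1225 and 921 CPM in knockdown cells, and Ccr2, the receptor that draws monocytes out of the blood, at 549.6, 453 and 329.6 and 589, 292 and 187 CPM. Ly6c2 was at 728, 764 and 153 and 958, 1019 and 518 CPM, lower only in the highest bin. Lyz2, at 7647, 5179 and 5873 and 9322, 4088 and 7237 CPM, had no steady slope, and Vcan, a proteoglycan, differed between the libraries, at 179, 151 and 212 and 363, 160.3 and 14.4 CPM. Il1b, which encodes the cytokine interleukin 1 beta, was at 3009, 2544 and 1153 and 3266, 2239 and 302 CPM. Inhba, a chain of activin, was at 488, 352 and 0 CPM in control and 1365, 830.3 and 0 CPM in knockdown cells, with 0 UMIs in the highest bin of both. Members with RNA of Inhba, Thbs1 and Ptgs2 were frequent: 20 of 75 control and 30 of 78 knockdown cells, 26.7% and 38.5%, held 5 or more UMIs of Inhba, Thbs1 and Ptgs2.

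Ccl8, a chemokine made by mature macrophages, stood almost wholly in the highest bin. It stood at 103, 151 and 5026 CPM across the control bins, with UMIs in 5, 3 and 13 cells, and at 0, 74.4 and 1179.8 CPM across the knockdown bins, with UMIs in 0, 4 and 16 cells. The number of cells with Ccl8 was thus alike in the highest bins, 13 of 25 and 16 of 26, while the level was 1385 CPM over all control members and 212 CPM over all knockdown members. A single control cell held 43.5% of the control UMIs of Ccl8. MHC class II genes were higher in the highest than in the lowest bin in both libraries for all 4 genes binned, H2-Ab1, H2-Aa, H2-Eb1 and Cd74, more so in knockdown cells, where the middle bin stood as high. H2-Ab1, a chain of MHC class II, was at 2844, 2846 and 3472 CPM in control and 1577, 4684 and 4834 CPM in knockdown bins.

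**Figure D3:**
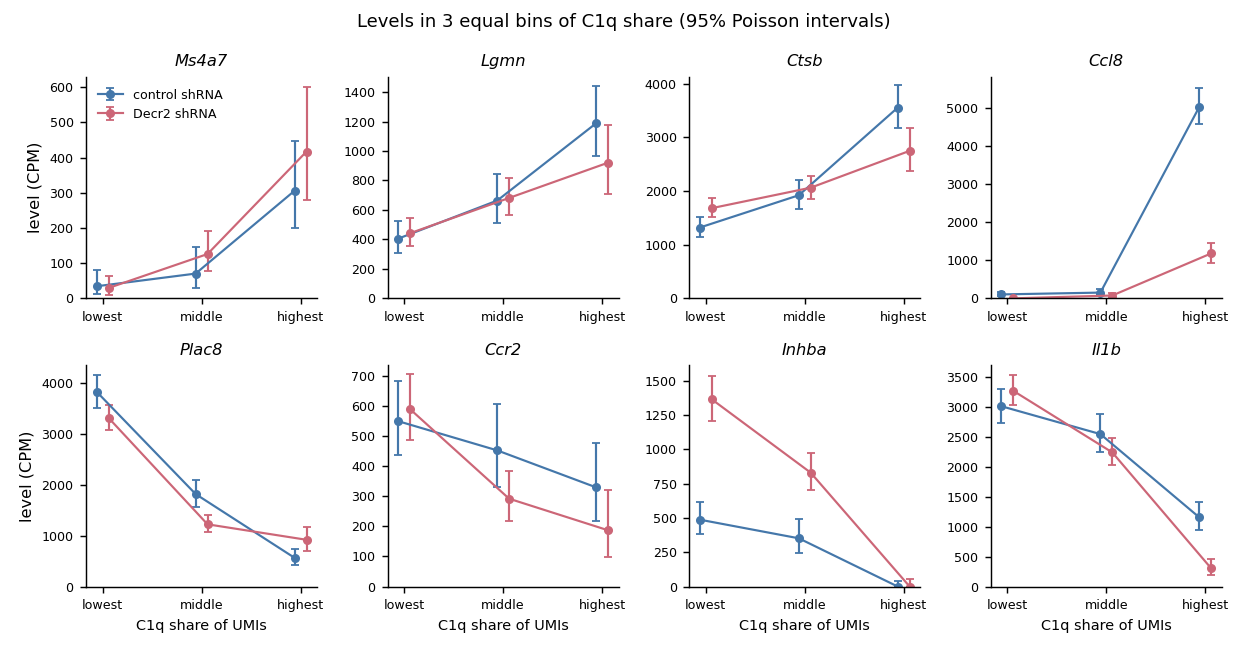
Each panel gives the level of 1 gene in CPM in 3 equal bins of the C1q share of UMIs in control and knockdown C1q macrophages, with exact 95% Poisson intervals. Ms4a7, Lgmn, Ctsb and Ccl8 are highest in the highest bin, and Plac8, Ccr2, Inhba and Il1b are highest in the lowest.

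The 6 control cells with more than 50 C1q UMIs held more RNA of several macrophage genes than the other members. Apoe stood at 3761 CPM in them against 389 CPM in the other control members, Mrc1 at 400.1 against 82.1 CPM, Trem2, a lipid receptor, at 400.1 against 118 CPM, and Plac8 at 720.3 against 2682 CPM. In the 2 such knockdown cells, Apoe was at 3541 against 669 CPM and Mrc1 at 249 against 84.2 CPM, while Trem2 had 0 UMIs. These knockdown levels rest on a single cell, which held 70 of the 71 Apoe UMIs, and Mrc1 was also found in 1 of the 2. Folr2 was gathered in these cells: 13 of its 15 control UMIs lay in 2 of them.

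Against monocytes of the same library, the C1q macrophages held more RNA of glycolysis and the response to low oxygen, of lipid handling, of iron storage, of chemokines and of MHC class II, and less of monocyte genes. The monocyte gate left out cells with 5 or more UMIs of Inhba, Thbs1 and Ptgs2. Among the C1q macrophages, 20 of 75 control and 30 of 78 knockdown cells held that many. The part of this difference in the ratios to monocytes was not tested. A ratio of at least 1.5 in both libraries was reached by 250 of 2763 genes compared, 9.05%, and a ratio of at most 0.667 in both by 247, 8.94%. Glycolysis and hypoxia genes passed the upper fold in 18 of 20. Ldha, lactate dehydrogenase, was at 1182 against 444 CPM in the control and 951 against 383 CPM in the knockdown library, 2.66-fold and 2.48-fold. Slc2a1, the glucose transporter GLUT1, was 2.83-fold and 3.45-fold higher, and Bnip3, a mitophagy gene induced by low oxygen, 9.32-fold and 6.33-fold.

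Lipid handling genes passed in 11 of 16. Fabp5, a fatty acid binding protein, was at 2385 against 287 CPM in the control and 2209 against 236 CPM in the knockdown library, 8.32-fold (7.54 to 9.18) and 9.36-fold (8.49 to 10.3). Spp1, osteopontin, was 28.2-fold and 23.3-fold higher, though 1 cell held 36.6% of its control and 31.0% of its knockdown UMIs in the C1q macrophages. Lgals3, a lectin, was 2.06-fold and 2.61-fold higher. Iron genes passed in 5 of 7: Fth1, the ferritin heavy chain, was 3.36-fold and 3.75-fold higher and Hmox1, which breaks down haem, 2.48-fold and 3.19-fold.

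Chemokines passed in 9 of 13, MHC class II genes in 4 of 7 and lysosome genes in 7 of 23. Of 4 NK cell genes compared, 3 also passed upward, Nkg7, Gzma and Ccl5, where 9.05% of all genes did. Ccl5 is counted among the chemokines too. Ccl2, which attracts monocytes, was 2.94-fold and 4.83-fold the monocyte level, and Cxcl16 7.30-fold and 5.40-fold. H2-Eb1, an MHC class II chain, was 2.39-fold and 2.51-fold higher and Ctsd, a lysosomal aspartic protease, 5.70-fold and 5.64-fold. Complement receptors passed in 3 of 6, with C3ar1, the receptor for C3a, at 115 against 17.6 CPM and 188 against 12.3 CPM. Monocyte genes were lower past the fold in 11 of 16: Lyz2, lysozyme, was at 0.419 and 0.394 of the monocyte level, but Lyz2, Plac8 and Ly6c2 were used to gate the monocytes. Csf1r was not higher in the C1q macrophages, at 0.682 and 0.725 of the monocyte level.

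By size of the smaller ratio, the genes that set the C1q macrophages highest above monocytes were, after the C1q chains, Ms4a7, Hilpda, Basp1, Fabp5, Dab2, C3ar1 and Bnip3. Hilpda, a lipid droplet protein induced by low oxygen, was 8.50-fold (6.88 to 10.5) and 13.5-fold (11.2 to 16.3) higher, and Dab2, an endocytic adaptor, 7.83-fold (5.21 to 11.7) and 11.3-fold (8.37 to 15.4). The lowest were Ngp, Gsr, Smpdl3a, Arhgap26, Slc44a2, Cdkn2d, Aldh2, Napsa, Nadk and Plcb1. Ngp, a neutrophil granule gene, had 649 UMIs in control and 199 in knockdown monocytes and 0 in the C1q macrophages. S100a9, a neutrophil and monocyte gene, was likewise at 1340.0 CPM in control monocytes and 0 in the C1q macrophages, so the monocyte gate held neutrophil RNA, and its part in the ratios was not tested. Gsr, glutathione reductase, stood at 0.211 (0.133 to 0.318) and 0.260 (0.176 to 0.373) of the monocyte level.

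Fewer genes separated the C1q macrophages from the Inhba macrophages: 128 of 2662 genes, 4.81%, were higher past the fold in both libraries, and 125, 4.7%, were lower. MHC class II passed in 5 of 7 and chemokines in 8 of 13, among them Ccl5, which is also on the NK cell list. H2-Ab1 was at 3006 against 1072 CPM in the control and 3294 against 1272 CPM in the knockdown library, 2.80-fold (2.57 to 3.05) and 2.59-fold (2.41 to 2.78). Cxcl9, a chemokine for activated T cells, was 4.07-fold and 2.08-fold higher, and Aif1, a macrophage calcium-binding protein, 3.31-fold and 2.66-fold. Glycolysis and hypoxia, which stood far above monocytes, passed in 2 of 21 genes against Inhba macrophages. Of the 21, 14 were higher and 3 lower in both libraries. Their median log2 ratios were 0.36 in both libraries, against -0.04 in both over all genes compared. The highest genes beside the C1q chains were Ms4a7, Cxcl16, Mmp14, H2-Eb1, Aif1, H2-Ab1 and Bcl2a1b. Inhba itself was not lower in the C1q macrophages, at 1.50-fold and 1.93-fold the Inhba macrophage level, while Thbs1 was at 0.183 and 0.628 of it. Both genes were used to gate the Inhba macrophages.

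Against Cd209a dendritic cells, 406 of 2750 genes, 14.8%, were higher past the fold in both libraries and 365, 13.3%, were lower. MHC class II was the reverse of the other comparisons, lower past the fold in 8 of 8 genes. H2-Aa was at 2749 against 6345 CPM in the control and 2866 against 5557 CPM in the knockdown library. Fc receptors passed upward in 5 of 6 and lipid handling in 12 of 14. Fcgr3, an activating IgG receptor, was 36.7-fold (16.5 to 101) and 18.0-fold (10.7 to 32.7) higher, and Flt3, a dendritic cell receptor, was at 3.03 and 8.93 CPM in C1q macrophages against 61.6 and 57.9 CPM. Slc11a1, C3ar1, F10 and Pla2g7 had 0 UMIs in the dendritic cells of both libraries. Thbs1 also had 0 UMIs there, but that gate required fewer than 5 UMIs of Inhba, Thbs1 and Ptgs2 together. F10, coagulation factor X, was at 279 and 333 CPM in C1q macrophages, at least 39.2-fold and 55.5-fold higher.

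C1q macrophages made up 0.760% (0.598 to 0.951) of control barcodes and 1.05% (0.827 to 1.30) of knockdown barcodes. The difference was 0.286 percentage points (0.00368 to 0.585, Newcombe's interval). With cells thinned to 1000 UMIs and a minimum of 3 C1q UMIs, the shares were 0.628% and 0.70%, and the difference of 0.0715 points (-0.177 to 0.336) spanned 0. That setting changes both the depth and the C1q minimum, and with at least 3 C1q UMIs alone the difference of 0.240 points (-0.0841 to 0.579) also spanned 0. No difference in share was detectable under these alternative settings, while the interval at the main setting lay just above 0. Whether the shares differ thus depended on the setting, and the part of the greater depth of the knockdown library was not tested. A share of sorted cells also moves with every other cell type in the sort.

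Over all genes, knockdown and control C1q macrophages were centred alike. A minimum of 30 UMIs in all and of 50 CPM in either library left 2962 genes. Of these, 419 (14.1%) had a knockdown-to-control ratio of at least 1.5 and 313 (10.6%) a ratio of at most 0.667. Of 3300 genes with at least 30 UMIs, 1603 were higher and 1697 lower in knockdown members, with a median log2 ratio of -0.02 at a pseudocount of 10 CPM. Of the genes past either fold, 97 had over 20% of their UMIs in 1 cell of the library where they were higher, and 51 stood at under 20% of their level in T, NK, B or melanoma cells.

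Inflammatory genes stood higher in the knockdown members. The list had 16 of 17 measured genes higher in knockdown, with a median log2 ratio of 0.82 against -0.02 over all measured genes, and 10 of 16 past the fold upward and 0 downward, where 14.1% and 10.6% of all genes passed. Tnf, tumour necrosis factor, was at 158 CPM in control members, with UMIs in 22 cells, and at 456 CPM in knockdown members, in 33 cells, a ratio of 2.89 (2.12 to 4.0). Cxcl2, which attracts neutrophils, was at 2979 and 5840.5 CPM, giving a ratio of 1.96 (1.82 to 2.11). Acod1, which makes the antimicrobial metabolite itaconate, was at 103 and 362 CPM, and Nlrp3, an inflammasome sensor, at 94.0 and 209.9 CPM. Acod1 missed the limit on UMIs in 1 cell or that on the level in other gates. Cd86, a ligand that co-stimulates T cells, was detected in 22 control and 41 knockdown members, at 124 and 246 CPM. Not every gene of the list differed in level: Il1b was at 2391 and 2405 CPM, giving a ratio of 1.01 (0.917 to 1.10), and Nfkbia, the inhibitor of NF-kappa-B, at 2291 and 2369.7 CPM.

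Inhba and Thbs1, the activin chain and thrombospondin 1, were also higher, at 321 and 945 CPM and 209 and 585 CPM, ratios of 2.94 (2.37 to 3.67) and 2.80 (2.14 to 3.70). Inhba UMIs were found in 9 control and 18 knockdown members. Without the members that held 5 or more UMIs of Inhba, Thbs1 and Ptgs2, which left 55 control and 48 knockdown cells, the median log2 ratio of the list was 0.0174, while the log2 ratios of Tnf and Cxcl2 were 2.54 and 1.24, against 1.53 and 0.97 over all members. That setting takes out cells by 3 of the 17 genes of the list itself, and it turned Thbs1 to a log2 ratio of -1.41.

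Interferon genes were also higher in the knockdown members. All 16 of 16 measured genes of the interferon gamma list stood higher, at a median log2 ratio of 0.57 and 8 of 16 past the fold upward and 0 downward, and 11 of 14 of the type I interferon list, with a median of 0.54 and 7 of 14 past the fold upward and 0 downward. Over all genes, 14.1% passed upward and 10.6% downward. Irf1, a transcription factor induced by interferon gamma, was at 233 and 460.1 CPM, giving a ratio of 1.97 (1.51 to 2.60), with UMIs in 34 and 39 cells. The most abundant of its genes, Cxcl10 and Cxcl9, chemokines for activated T cells, were at 1388 and 1923 CPM and 624 and 1007 CPM. Gbp2, a guanylate-binding protein, was at 724 and 858 CPM, Cd274, the checkpoint ligand PD-L1, at 200.0 and 326 CPM, and Gbp5 at 81.8 and 152 CPM. Of the type I genes, Isg15, a ubiquitin-like protein, was at 1006 and 1575 CPM, Rsad2, the antiviral protein viperin, at 200.0 and 371 CPM, and Ifit2 at 94.0 and 209.9 CPM. Bst2 and Oasl2 were near equal, with ratios of 0.962 and 1.05.

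Antigen presentation differed little. MHC class I had 9 of 12 genes higher, with a median log2 ratio of 0.19, and MHC class II 6 of 7, with a median of 0.13. Cd74, the invariant chain, was at 7971 and 8661 CPM, giving a ratio of 1.09 (1.03 to 1.14), and H2-Aa at 2749 and 2866 CPM, giving a ratio of 1.04 (0.957 to 1.14). Ciita, the activator of MHC class II genes, was at 57.6 and 98.3 CPM, with a ratio of 1.71 (0.976 to 3.10). Monocyte genes divided evenly, with 8 of 16 higher, among them Ly6c2 at 591 and 913 CPM, while Fn1, fibronectin, was lower at 369.7 and 194 CPM and Plac8 near equal at a ratio of 0.893.

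**Figure D4:**
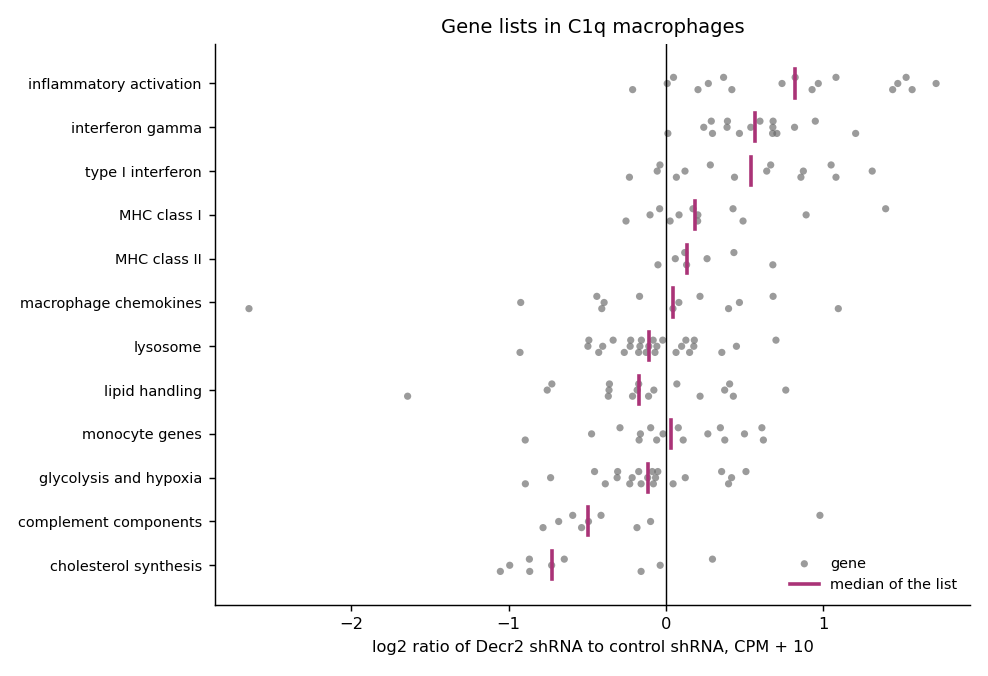
Each point is 1 measured gene of a list, with its log2 ratio of knockdown to control C1q macrophages at a pseudocount of 10 CPM on the x axis; the bar is the list's median. Inflammatory and interferon lists lie to the right, with medians of 0.82, 0.57 and 0.54, and cholesterol synthesis to the left at -0.73.

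The chemokine list had no common direction, with 7 of 13 genes higher and a median log2 ratio of 0.04. Ccl3, an inflammatory chemokine, was at 461 and 996 CPM, giving a ratio of 2.16 (1.79 to 2.62), while Ccl2 was at 2288 and 2423 CPM, giving a ratio of 1.06 (0.964 to 1.16). Ccl3 missed the limit on UMIs in 1 cell or that on the level in other gates. Ccl8 was the chemokine with the lowest ratio, 0.153 (0.121 to 0.191), from 457 UMIs in 21 control cells, 43.5% of them in 1 cell, and 95 UMIs in 20 knockdown cells. Ccl6 was at 1903 and 1447 CPM and Ccl12 at 409 and 306 CPM. Ccl5, at 873 and 456 CPM, is also made by T and NK cells, and stood in the C1q macrophages at under 20% of its level in another gate.

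Genes of alternative activation and of lipid-associated macrophages were scattered. The first list had 5 of 12 genes higher, with a median log2 ratio of -0.05, and the second 6 of 17, with a median of -0.17. Trem2 was lower in knockdown members, at 161 and 44.7 CPM, giving a ratio of 0.278 (0.157 to 0.473), with UMIs in 21 and 16 cells. Like Acod1, Trem2 missed the limit on UMIs in 1 cell or that on the level in other gates. The 6 control cells with more than 50 C1q UMIs held 37.7% of the control UMIs of Trem2. Arg1, which breaks down arginine, was at 518 and 197 CPM, but 1 cell held 49.7% of its control UMIs, and Ccl24, which attracts eosinophils, at 267 and 42.4 CPM, with 76.1% of the control UMIs in 1 cell. Selenop was at 158 and 71.5 CPM, giving a ratio of 0.454 (0.283 to 0.718), but with equal weight per cell it was at 145 and 134 CPM. Lgals3, Fabp5 and Tyrobp, a signalling adaptor, were the most abundant of the lipid list and had ratios of 1.16, 0.926 and 0.863.

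Lysosome genes were 9 of 27 higher, with a median log2 ratio of -0.11. Npc2, which moves cholesterol out of lysosomes, was the exception past the fold upward, at 1252 and 2039 CPM, giving a ratio of 1.63 (1.45 to 1.83), with UMIs in 67 and 70 cells, and Psap, the precursor of saposins, was at 2461 and 3151 CPM. The proteases Ctsb, Ctss and Lgmn had ratios of 0.961, 0.986 and 0.890. Cholesterol synthesis was the list with the lowest median, -0.73, with 1 of 9 genes higher. In it, 0 of 8 genes were past the fold upward and 6 downward, where 14.1% and 10.6% of all genes passed. Fdps, farnesyl diphosphate synthase, was at 206 and 121 CPM, Cyp51, a sterol demethylase, at 130.3 and 67.0 CPM, and Srebf2, the transcription factor of the pathway, at 112 and 51.4 CPM. These are scarce RNAs, with a summed level of 1088 CPM in control and 697 CPM in knockdown members over the whole list.

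Complement genes other than C1q were few. Of the list of components, 1 of 9 measured genes were higher in knockdown, but the measured genes include the C1q chains that chose the cells. C1qa was at 1385 and 802 CPM, C1qb at 2388 and 1644 CPM and C1qc at 955 and 629.8 CPM. These sums lean on the 6 control cells rich in C1q: without members above 50 C1q UMIs the log2 ratio of C1qa was 0.25, and with equal weight per cell it was 0.0712. C3, the central component, was at 115 and 237 CPM, giving a ratio of 2.06 (1.41 to 3.06), with UMIs in 15 control and 33 knockdown cells. Cfb and Cfp, factor B and properdin, were at 149 and 129.5 CPM and 173 and 127 CPM. Among receptors, C3ar1 was at 115 and 188 CPM, giving a ratio of 1.63 (1.10 to 2.46), and Itgam, a chain of complement receptor 3, at 352 and 275 CPM, giving a ratio of 0.781 (0.601 to 1.02). The Fc receptors Fcgr1, Fcgr3 and Fcer1g had ratios of 1.04, 1.04 and 0.933, and none of the 5 measured passed the fold.

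Glycolysis and hypoxia genes were 6 of 21 higher, with a median log2 ratio of -0.12, and Ero1l, an oxidase of the endoplasmic reticulum, the lowest at 494 and 261 CPM. Iron genes were 3 of 9 higher, with a median of -0.08, and Fth1 had a ratio of 1.09 (1.06 to 1.13). The list on ferroptosis and unsaturated fatty acids, named for the process in the study's title, had 4 of 9 genes higher, with a median of -0.07. Slc7a11, the cystine importer that feeds glutathione synthesis, was at 21.2 and 109 CPM, from 7 UMIs in 4 control cells and 49 UMIs in 18 knockdown cells, a ratio of 5.16 (2.32 to 13.5). Gpx4, which removes lipid peroxides, was at 227 and 214 CPM, giving a ratio of 0.943 (0.690 to 1.29).

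Stress genes, which enzymatic digestion of tissue can switch on, were 12 of 20 higher, with a median log2 ratio of 0.20 and 5 of 20 past the fold upward and 0 downward. Over all genes, 14.1% passed upward and 10.6% downward. The immediate early genes Egr1 and Ier3 were at 209 and 447 CPM and 818 and 1329 CPM, and the heat shock gene Hspa1a was at 1897 and 1429 CPM. The part of digestion in the inflammatory difference was not tested. Genes of dead cell uptake were 6 of 9 higher, with a median of 0.25, and Cd300lf, a receptor for lipids of dying cells, was at 112 and 181 CPM. Checkpoint and inhibitory genes were 8 of 13 higher, with a median of 0.09, and Lilrb4a, an inhibitory receptor, was at 615 and 690.1 CPM. Macrophage identity genes were 10 of 18 higher, with a median of 0.05, and the transcription factors Cebpb and Spi1 had ratios of 0.871 and 0.963.

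Oxidative stress genes under NRF2 were 5 of 9 higher, with a median of 0.10. Of these 9, 3 were past the fold upward and 0 downward, where 14.1% and 10.6% of all genes passed. Sqstm1, an autophagy receptor, was at 155 and 226 CPM, and Txnrd1, thioredoxin reductase, at 103 and 156 CPM. Matrix and growth factor genes were 8 of 13 higher, with a median of 0.13, with Plaur, the urokinase receptor, at 269.7 and 438 CPM and Tgfbi, a matrix protein, at 1252 and 1001 CPM. Proliferation genes were too scarce to describe as a group, with 2 of 4 measured genes higher.

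The 12 genes with the highest lower bound of the ratio were Il7r, Inhba, Slc7a11, Thbs1, Tnf, Rara, Tnfaip2, Malt1, Cxcl2, Arhgap31, Mxd1 and Vwa5a. Il7r, the interleukin 7 receptor, was at 54.6 and 348 CPM, giving a ratio of 6.39 (3.91 to 11.1), with UMIs in 6 and 24 cells. It is best known from T cells, whose marker list summed to 236 and 587 CPM in the control and knockdown members. Among the members without a UMI of Cd3g, Trac, Trbc2, Nkg7, Gzma or Gzmb, 40 control and 17 knockdown cells, the log2 ratio of Il7r was 4.49, and among those outside the Inhba programme it was 0.42. Malt1, a signalling protease upstream of NF-kappa-B, was at 261 and 621 CPM in 29 and 46 cells, Mxd1, an antagonist of MYC, at 203 and 467 CPM in 27 and 39 cells, and Tnfaip2, a gene induced by TNF, at 81.8 and 246 CPM in 13 and 31 cells. Among the members without the 6 lymphoid genes, log2 ratios moved for Tnfaip2 from 1.57 to 3.28, for Mxd1 from 1.2 to 2.12, for Rara from 2.16 to 0.85 and for Thbs1 from 1.48 to 0.70. Rara, Arhgap31 and Vwa5a were scarce, with 6, 5 and 7 control UMIs and 38, 31 and 37 knockdown UMIs.

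**Figure D5:**
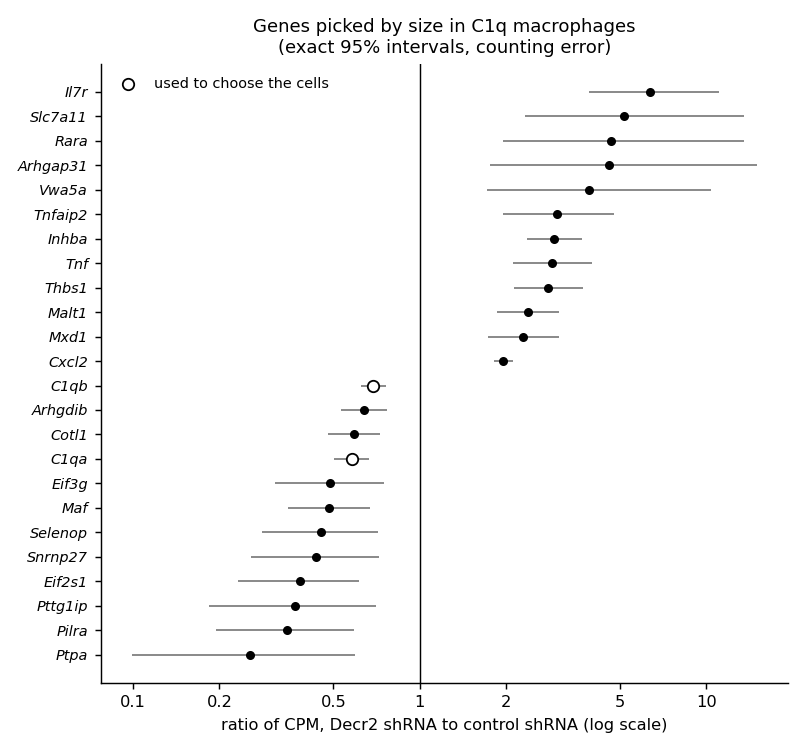
Points give the ratio of knockdown to control CPM on a log scale for the 12 highest and 12 lowest genes, with exact 95% intervals for counting error. Open points mark C1qa and C1qb, which were used to choose the cells; Il7r is highest at 6.39 and Ptpa lowest at 0.256.

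The 12 lowest were Pilra, Ptpa, Eif2s1, C1qa, Maf, Pttg1ip, Selenop, Snrnp27, Cotl1, Eif3g, C1qb and Arhgdib. Pilra, an inhibitory receptor of myeloid cells, was at 136 and 46.9 CPM, giving a ratio of 0.344 (0.195 to 0.589), with UMIs in 26 and 12 cells. Maf, a transcription factor of mature macrophages, was at 291 and 141 CPM, giving a ratio of 0.484 (0.346 to 0.671), in 34 and 30 cells. Cotl1 and Arhgdib, regulators of the actin skeleton, were at 636 and 375 CPM and 769.8 and 491 CPM. Eif2s1 and Eif3g, translation initiation factors, were at 164 and 62.5 CPM and 169.7 and 82.6 CPM. Ptpa, which activates a phosphatase, had 23 and 8 UMIs.

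RNA of other cells was present in both libraries and differed between them. A UMI of Cd3g, Trac, Trbc2, Nkg7, Gzma or Gzmb was seen in 35 of 75 control and 61 of 78 knockdown members, although Cd3e, Cd3d and Ncr1 were at 0 by the rule. The 12 genes of the T cell list summed to 236 CPM in control and 587 CPM in knockdown members, with UMIs in 32 and 54 members, and the highest single cells at 3967 and 3876 CPM. The 10 genes of the NK cell list summed to 2031 and 829 CPM, with UMIs in 50 and 70 members and 33.3% and 24.3% of the UMIs in 1 cell. The highest single cells of that list stood at 84438 CPM in the control and 13000.1 CPM in the knockdown library. The 10 melanoma genes summed to 239 and 228 CPM, the 9 B cell genes to 72.7 and 69.2 CPM, with Pax5 at 0 UMIs, and the 10 neutrophil genes to 51.5 and 53.6 CPM, with S100a9 and Ly6g at 0 UMIs. The 10 conventional dendritic cell genes summed to 124 and 82.6 CPM, with Zbtb46 at 0, and the 8 plasmacytoid dendritic cell genes to 60.6 and 123 CPM. The 9 mast cell genes summed to 9.09 and 11.2 CPM, the 10 fibroblast and endothelial genes to 24.2 and 80.4 CPM, and the 6 erythroid genes to 18.2 and 2.23 CPM. The part of these RNAs in the differences above was not tested. The members without the 6 lymphoid genes were 40 control and 17 knockdown cells. Among them, the log2 ratios of Tnf and Cxcl2 were 2.51 and 1.08. Of the named genes, 10 moved in that setting and 14 did not.

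Shares of cells in a given state were compared after thinning each cell to 1000 UMIs, which left 68 control and 73 knockdown members and set 7 and 5 aside. B cells without C1q, 262 and 173 in number, gave the background, with median depths of 1644.5 and 2630 UMIs before thinning against 4674.5 and 6176 for the members. Trem2 was seen in 13 of 68 control members, 19.1% (10.6 to 30.5), and 4 of 73 knockdown members, 5.48% (1.51 to 13.4), and in 0 B cells. Thinned to 2000 UMIs, Trem2 was seen in 8 of 57 and 5 of 61 members, 14.0% and 8.20%, and without thinning in 28% and 20.5%, so the gap depended on the depth used. Inhba was seen in 5.88% (1.63 to 14.4) and 19.2% (10.9 to 30.1), again with 0 B cells. Ccl8 was seen in 20.6% (11.7 to 32.1) and 19.2% (10.9 to 30.1), against a level of 1385 and 212 CPM, so the share of cells was close while the level was not. The intervals of the libraries overlap for each of these genes.

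For the other states, the intervals of the libraries also overlapped. Ly6c2 was seen in 25% (15.3 to 37.0) and 28.8% (18.8 to 40.6) of members against 6.11% and 4.62% of B cells, Mrc1 in 7.35% (2.43 to 16.3) and 9.59% (3.94 to 18.8), Arg1 in 11.8% (5.22 to 21.9) and 9.59% (3.94 to 18.8), and Spp1 in 19.1% (10.6 to 30.5) and 15.1% (7.77 to 25.4). H2-Aa was seen in 64.7% (52.2 to 75.9) and 60.3% (48.1 to 71.5), less than in B cells, which make it themselves. Apoe, at 29.4% (19.0 to 41.7) and 27.4% (17.6 to 39.1), lay close to the 17.2% and 25.4% of B cells. At least 2 proliferation genes were seen in 11.8% (5.22 to 21.9) and 17.8% (9.84 to 28.5) of members against 13.4% and 13.9% of B cells, which can cycle themselves and so give no background for these genes. Against monocytes, Pcna, Stmn1 and Tubb5, 3 of the 4 proliferation genes compared, were higher past the fold in both libraries, where 9.05% of all genes were. Cx3cr1 was seen in 1 member of each library, and Folr2 in 1 control member and 0 of 73 knockdown members, 0% (0 to 4.93).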

How the data were processed

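Raw UMI counts per gene and barcode were the values deposited, 1 matrix per library; the authors made them with Cell Ranger 6.1.2 on mm10 and used Seurat 4.3, per the submitters' processing notes. The sources used here give neither its settings nor the annotation release. The libraries held 11335 and 9542 barcodes and 47538493 and 55417986 UMIs. Counts were summed over the cells of a gate and scaled to CPM with Python 3.11.15, NumPy 2.4.6, SciPy 1.17.1 and pandas 2.3.3, and scripts were tested on simulated data. Intervals are exact at 95%: Poisson for levels, conditional binomial for ratios, Clopper-Pearson for shares, and Newcombe's (not exact) for the difference of shares. Doublets were scored with Scrublet in scanpy 1.11.5 and kept. Positions are from GENCODE (GRCm38) and promoters from RefSeq.

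Named genes had at least 30 UMIs, at least 50 CPM in 1 library, at most 20% of UMIs in 1 cell of the library where the gene was higher and at least 20% of the level in T, NK, B and melanoma gates. They were ranked by the interval bound nearest a ratio of 1, 12 each way. From lists, the most abundant genes were named, and others after their values were seen. List genes did not have to meet the limits on UMIs in 1 cell and on other gates. Acod1, Trem2 and Ccl3 were among those that missed at least 1 of these limits. The members and the lists were chosen with earlier results of these data known. With 1 library per group no test was run. Alternatives changed the C1q minimum, mitochondrial limit, depth, doublets, weighting, scaling and fold, and left out groups of members. A few items are not reported here.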

Additional observations from a re-analysis of the deposited data

How the results depend on the processing

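No paired analysis was possible because each group had 1 library, and for the same reason no replicate could be left out. The shares of C1q macrophages were 1.07% and 1.31% with at least 3 C1q UMIs, 0.456% and 0.697% with at least 10, and 0.70% in the knockdown library after thinning; the interval of the difference included 0 with at least 3 UMIs, with mitochondrial limits of 5% and 20%, without doublets and after thinning. Genes past the fold numbered 185 higher and 192 lower of 1298 tested without members holding a T or NK marker UMI, 165 higher of 1854 without members holding 5 UMIs of Inhba, Thbs1 and Ptgs2, and 130 and 64 of 2962 at a ratio of 2. The log2 ratio reversed for C1qa with equal weight per cell (0.0712) and without members above 50 C1q UMIs (0.25), and for Thbs1 without the Inhba members (-1.41), and that of Selenop was -0.11 with equal weight. List medians moved for Fc receptors at 3 C1q UMIs (0.10), complement receptors at 10 (-0.39), and complement (-0.0848) and lysosome (0.19) with equal weight. Without T or NK marker members they moved for chemokines (-0.66), interferon gamma (0.85), identity (-0.21), iron (0.14) and cholesterol (-1.59). Without Inhba members they moved for lipid handling (-0.54), inflammatory (0.0174) and proliferation (0.40), and without members above 50 C1q UMIs for complement (-0.0711) and Fc receptors (0.0592). The setting that removes T or NK marker members keeps 40 and 17 cells, and Inhba genes are part of the inflammatory list; other causes were not tested. Thinned to 2000 UMIs, Ly6c2 was seen in 47.4% and 54.1% of members, H2-Aa in 73.8% of knockdown members and proliferation genes in 24.6% and 32.8%. Unthinned, Mrc1 was seen in 23.1% of knockdown members, Trem2 in 28% of control and 20.5% of knockdown members, Spp1 in 32% of control members, Ly6c2 in 44% and 56.4%, H2-Aa in 80% and 78.2% and proliferation genes in 58.7% and 74.4%. With equal weight per cell, knockdown log2 ratios were 0.95 for Apoe against monocytes, and 4.89 for Ms4a7 and 1.12 for Apoe against Inhba macrophages, and 5.07 for Apoe against Cd209a dendritic cells; Lgmn against control monocytes was 2.08. With gate minimums doubled, Lgmn against Inhba macrophages was 0.55 and 0.77, and Apoe against knockdown dendritic cells 5.75.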
